A study of Mus musculus with 11 samples.

Results

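Cholesterol synthesis genes were examined across the testis RNA of WT mice and of mice lacking either iron regulatory protein. The 7 genes were chosen by name as sterol synthesis genes and their regulator, out of 24411 genes counted, by a rule that uses no measured value, though with earlier results of these data known. They are Hmgcs1, Fdft1, Sqle, Lss, Cyp51 and Dhcr7, which encode enzymes of the pathway, and Srebf2, which encodes the transcription factor that drives it. No uptake receptor is among them, and uptake genes are given as a separate list. The samples were 4 WT, 4 Irp1-/- and 3 Irp2-/- testes from untreated mice aged 20 weeks. Irp1-/- mice carried a global knockout of Aco1 (allele Aco1 tm1Roua, on a C57Bl/6J background), and WT mice were littermates from crosses of Irp1 heterozygotes. Irp2-/- mice carried a global knockout of Ireb2, whose allele is not given in the sources used here. The WT mice are described as littermates of the Irp1 line only. In comparisons with Irp2-/- testes, genotype therefore cannot be told apart from mouse line. Both deletions affect every cell of the animal, and the RNA came from whole decapsulated testis. The labels number the samples within a genotype, so p-values measure the spread between these samples. One label letter differs for Irp1-/- replicate 6 and its meaning is not stated.

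Cells make cholesterol from acetyl-CoA through mevalonate, farnesyl diphosphate, squalene and lanosterol. When sterols in the endoplasmic reticulum run low, SCAP escorts SREBP2 to the Golgi, where it is cleaved and released to activate the synthesis and uptake genes together. In the testis, Leydig cells turn cholesterol into testosterone, while germ cells use sterols for membranes and make meiosis-activating sterols with CYP51. A whole testis therefore mixes both uses in 1 measurement, and fewer cells of a type cannot be told apart from less RNA per cell.

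SREBP2 binds sterol regulatory elements, usually beside boxes for the factor NF-Y, so the promoters of the members were searched for these letters. RefSeq promoter windows on GRCm38.p6, from 250 bases before to 50 bases after a start, were listed for 5 of the 7 members (7 windows, as Dhcr7 has several starts), and those of Sqle and Fdft1 were not analysed here. The sterol element TCACNCCAC was found in 1 member, Hmgcs1, 137 bases before its start, and 1.24% of 32851 promoters held it. The NF-Y box CCAAT was found in 5 of the 7 windows, 1 for each listed member, against 37.4% of all promoters. The Sp1 box GGGCGG was found in 6 of the 7 windows, against 35.7%. The cyclic AMP response element TGACGTCA was in none of the 7 windows and in 1.79% of all promoters. Both strands were searched, and none of these patterns contains another. A stretch of 60 bases is shown for each listed member, 5′ to 3′ on the strand of the gene, to let the boxes be compared between members. The Dhcr7 stretch comes from the third of its listed starts, which lies inside the gene, and the window at its first start holds no NF-Y box. Capitals mark the sterol element in Hmgcs1 and the NF-Y box, or its reverse complement, in the others.
Hmgcs1, chr13:119690194-119690253, plus strand: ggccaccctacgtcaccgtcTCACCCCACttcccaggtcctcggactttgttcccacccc
Cyp51, chr5:4104687-4104746, minus strand: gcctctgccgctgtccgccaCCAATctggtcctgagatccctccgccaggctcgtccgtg
Lss, chr10:76531523-76531582, plus strand: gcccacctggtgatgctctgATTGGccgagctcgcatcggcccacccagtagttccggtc
Dhcr7, chr7:143830109-143830168, plus strand: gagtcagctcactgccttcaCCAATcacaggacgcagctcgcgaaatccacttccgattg
Srebf2, chr15:82147114-82147173, plus strand: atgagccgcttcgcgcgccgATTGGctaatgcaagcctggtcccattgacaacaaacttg
A match is a description of letters and not of binding, and no match says only that these letters are not in the window.

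Total counts per sample ranged from 15902473 to 22451417. A chi-square test of counts separated the members of each of the 15 replicate pairs beyond counting error (1.97 to 6.75 per degree of freedom), so none was treated as a copy. The targeted genes followed the labels. Aco1 lay at 7.93 to 9.13 CPM (counts scaled to the library total after TMM adjustment) in Irp1-/- and at 9.80 to 12.9 CPM in WT testes, with a log2 fold change of -0.45 (edgeR, adjusted p = 0.0158). Ireb2 lay at 61.8 to 62.7 CPM in Irp2-/- and at 131 to 144 CPM in WT testes, with a log2 fold change of -1.16 (edgeR, adjusted p = 2.8e-13). The epididymis markers summed to at most 0.251 CPM in any sample, and the Leydig, Sertoli and germ cell markers of testis were present.

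All 7 members were well counted, with 173 reads (Dhcr7 in WT replicate 2) as the lowest count, and all passed edgeR's filter on low counts in each comparison. Per length of exon, Fdft1 stood highest in WT testes at 130.03 ± 6.67 CPM per kb (SD, n = 4). FDFT1, squalene synthase, condenses farnesyl diphosphate into squalene, the first step committed to sterols. Next came Sqle, the squalene epoxidase, at 42.6 ± 0.21 CPM per kb (SD, n = 4), and Cyp51, the lanosterol demethylase, at 26.8 ± 1.43 CPM per kb (SD, n = 4). Hmgcs1, whose enzyme makes HMG-CoA at the head of the pathway, had 20.9 ± 1.71 CPM per kb (SD, n = 4). Far below these lay Srebf2 at 5.90 ± 0.22, Dhcr7 at 4.12 ± 1.10 and Lss at 3.77 ± 0.46 CPM per kb (SD, n = 4 each). Of neighbours in this order, only Dhcr7 and Lss overlapped between WT samples. Lss encodes lanosterol synthase, which acts directly between SQLE and CYP51, and its level per kb was the lowest of the 4 consecutive enzymes from Fdft1 to Cyp51.

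**Figure D1:**
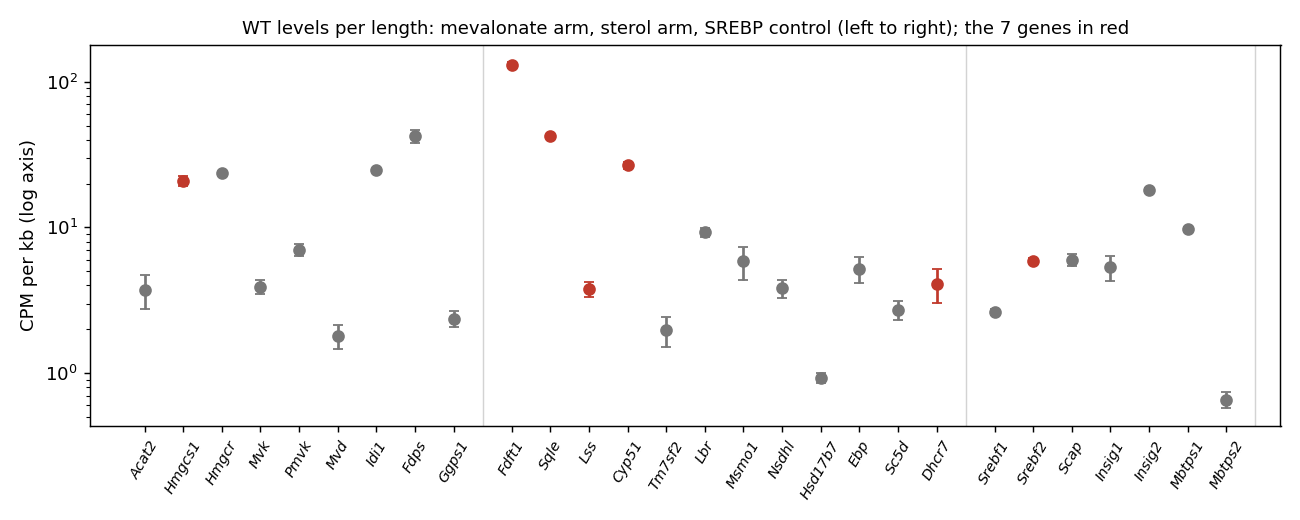
Level per kb of exon in WT testes on a log axis (mean and SD of 4 samples) for most genes of the mevalonate arm, the sterol arm and SREBP control, in pathway order from left to right. The 7 members are red and the other genes grey. Fdft1 stands highest at 130.03 CPM per kb, and Lss, at 3.77 CPM per kb, lies below its neighbours Sqle and Cyp51.

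Hmgcs1 (chromosome 13 of mm10, 119690351 to 119708260) was at 65.5, 71.1, 75.9 and 79.1 CPM in WT replicates 1 to 4. Its Irp1-/- values were 74.2, 89.6, 72.8 and 76.6 CPM in replicates 1, 2, 6 and 7, and its Irp2-/- values 73.6, 69.8 and 87.2 CPM. The 3 genotypes overlapped, with the highest value in Irp1-/- replicate 2 and the lowest in WT replicate 1.

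Fdft1 (chromosome 14, 63145150 to 63181687) was at 515, 482, 464 and 462 CPM in WT, at 505, 501, 496 and 497 CPM in Irp1-/- and at 471, 474 and 459 CPM in Irp2-/- testes. Every Irp1-/- value lay above every Irp2-/- value, while the WT range covered all but 1 of the 7 knockout values. Fdft1 overlaps Ctsb on the opposite strand, and whether the counting used strand is not stated.

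Sqle (chromosome 15, 59315092 to 59331193) was at 118, 117, 118 and 117 CPM in WT testes. In Irp1-/- testes it was at 115, 122, 121 and 112 CPM, and in Irp2-/- testes at 120.4, 116 and 123 CPM. Over the 11 samples its coefficient of variation was 2.76%, against a median of 8.89% for all genes tested.

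Lss (chromosome 10, 76531565 to 76557139) was at 16.4, 15.5, 20.4 and 18.1 CPM in WT, at 19.3, 21.9, 20.2 and 17.8 CPM in Irp1-/- and at 20.7, 18.6 and 24.2 CPM in Irp2-/- testes. WT replicates 1 and 2 held its lowest values, and WT replicates 3 and 4 lay among the knockouts. Lss overlaps an antisense gene, 4930483K19Rik.

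Cyp51 (chromosome 5, 4080674 to 4104697) was at 96.9, 107, 108 and 109 CPM in WT, at 108, 115, 103 and 105 CPM in Irp1-/- and at 115, 105 and 112 CPM in Irp2-/- testes. WT replicate 1 was the lowest and the other 10 samples overlapped between genotypes. Its coefficient of variation was 5.01%, and it overlaps Akap9 on the opposite strand.

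Dhcr7 (chromosome 7, 143823167 to 143848410) encodes the reductase that turns 7-dehydrocholesterol into cholesterol. It was at 10.3, 10.7, 17.5 and 15.98 CPM in WT testes. Irp1-/- testes had 17.1, 18.1, 14.6 and 16.9 CPM, and Irp2-/- testes 15.4, 14.9 and 15.7 CPM. WT replicates 1 and 2 stood below all other samples, and WT replicates 3 and 4 lay within the range of the knockouts. Its coefficient of variation over the 11 samples, 16.8%, was the highest of the 7 members.

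Srebf2 (chromosome 15, 82147269 to 82205379) was at 31.1, 28.5, 29.7 and 30.5 CPM in WT, at 33.9, 31.3, 29.3 and 30.4 CPM in Irp1-/- and at 29.0, 29.4 and 33.7 CPM in Irp2-/- testes. The genotypes overlapped. Mir33, the microRNA gene within Srebf2, lies on the same strand.

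**Figure D2:**
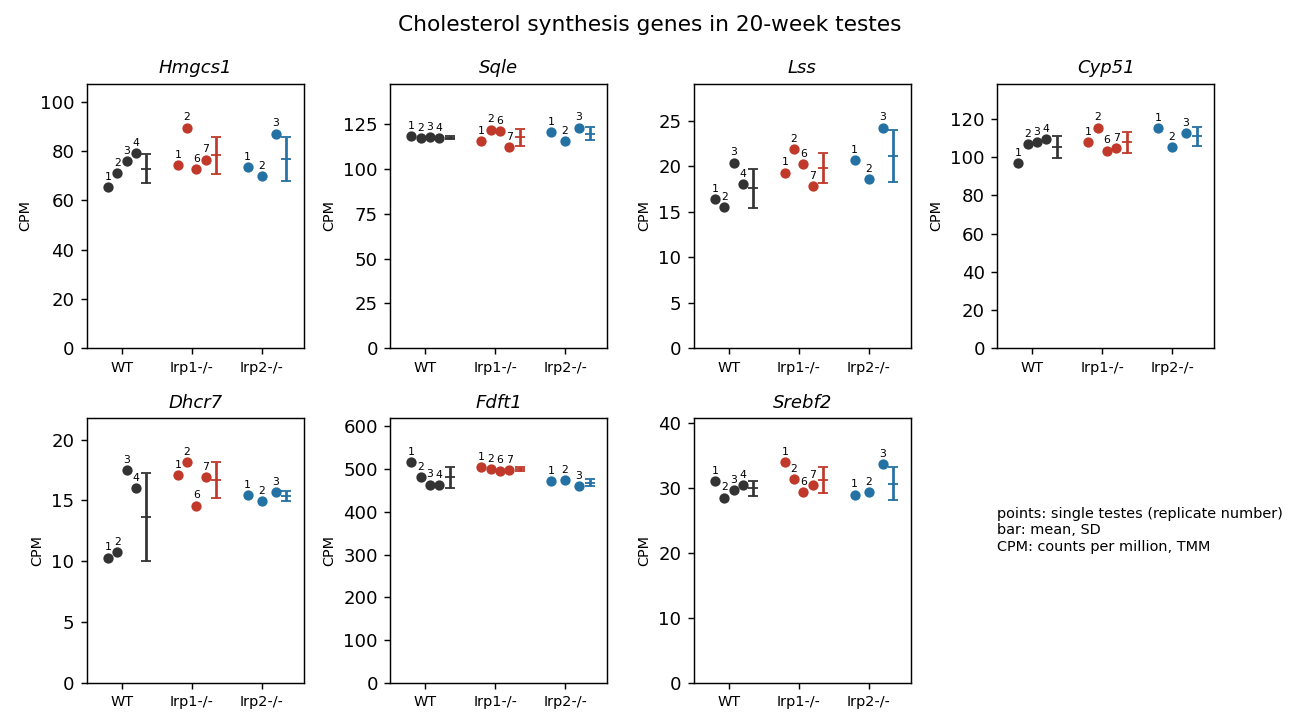
CPM of the 7 genes in each testis (points, with the replicate number), beside the mean and SD of each genotype, on axes that start at 0. Dhcr7 and Lss are lowest in WT replicates 1 and 2, and Sqle and Cyp51 are nearly level over the 11 samples.

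Whether loss of Irp1 shifted the pathway was asked by comparing 4 Irp1-/- with 4 WT testes. None of the 7 members passed an adjusted p of 0.05 in edgeR or in DESeq2, where 1.02% of 16002 genes did in edgeR and 1.56% of 11657 in DESeq2. One member, Lss, had an unadjusted p under 0.05, against 12.1% of all genes. Its level was 1.13 times that of WT (log2 fold change 0.17, 95% interval 0.0066 to 0.34, adjusted p = 0.386, edgeR). The widest interval was that of Dhcr7, with a log2 fold change of 0.29 (-0.12 to 0.69, adjusted p = 0.587, edgeR). Against WT replicates 3 and 4 alone, a split chosen after seeing the data, its log2 fold change was -0.0011 and that of Lss 0.051. WT replicates 1 and 2 hold the 2 lowest values of both genes, so leaving them out lowers these fold changes by construction.

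The other members had narrower intervals than Lss and Dhcr7, and those of Sqle, Cyp51 and Fdft1 were the narrowest. Sqle differed by a log2 fold change of 0.0027, with an interval of -0.080 to 0.085, so a change in level beyond 1.06 times lay outside it. The value was 0.036 for Cyp51 (-0.057 to 0.13) and 0.055 for Fdft1 (-0.023 to 0.13). Hmgcs1 had 0.10 (-0.041 to 0.25) and Srebf2 had 0.061 (-0.057 to 0.18). All 7 fold changes were above 0, where 49.7% of all genes were, and no member had groups that did not overlap, against 6.63% of all genes. The median of the members was 0.061 and that of all genes -0.00079.

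In Irp2-/- against WT testes no member passed the adjusted p either, in edgeR (1.21% of 16154 genes did) or in DESeq2 (1.23% of 16149). Lss again was the 1 member with an unadjusted p under 0.05, against 9.42% of all genes, at 1.202 times the WT level (log2 fold change 0.27, 95% interval 0.062 to 0.47, adjusted p = 0.306, edgeR). The same 4 WT samples served in both comparisons, so the values of Lss are not independent of each other. Dhcr7 had a log2 fold change of 0.17 (-0.24 to 0.59), which was -0.12 against WT replicates 3 and 4 alone. Leaving out WT replicates 1 and 2, where Dhcr7 was lowest, lowers that value by construction. Cyp51 had 0.079 (-0.029 to 0.19), Hmgcs1 0.077 (-0.091 to 0.25) and Srebf2 0.035 (-0.10 to 0.17). Sqle had 0.028 (-0.067 to 0.12) and Fdft1 -0.036 (-0.13 to 0.059). Above 0 were 6 of the 7, against 51.3% of all genes, and groups stood apart for none of the members and for 9.23% of all genes.

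Between the knockouts more genes differed, 4.69% of 16281 in edgeR and 4.44% of 15017 in DESeq2, and again none of them was a member. Fdft1 was 1.07 times as high in Irp1-/- as in Irp2-/- testes (log2 fold change 0.095, 95% interval 0.0060 to 0.18, adjusted p = 0.264, edgeR). It was the 1 member with an unadjusted p under 0.05, against 16.3% of all genes, and the 1 member whose groups did not overlap, against 15.2%. Dhcr7 had 0.12 (-0.054 to 0.30) and Lss -0.088 (-0.27 to 0.098). The remaining 4 members had log2 fold changes between -0.039 (Cyp51) and 0.031 (Hmgcs1). Of the 7, 4 were above 0, as were 49.4% of all genes.

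**Figure D3:**
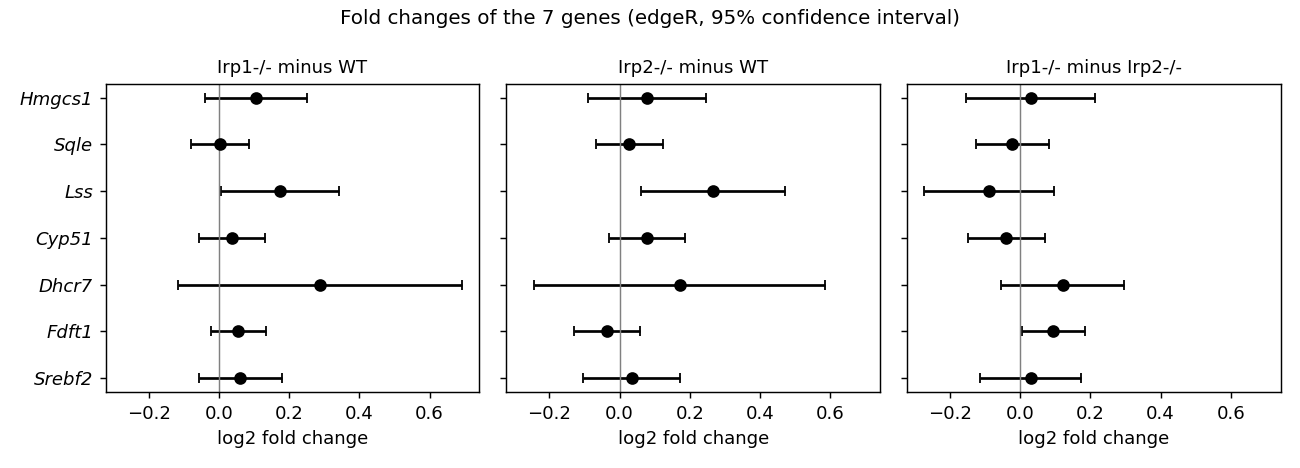
Log2 fold changes of the 7 genes with 95% confidence intervals from edgeR in the 3 genotype comparisons. Sqle, Cyp51 and Fdft1 have short intervals, which contain 0 except that of Fdft1 between the knockouts (0.0060 to 0.18), and Dhcr7 has the longest in both comparisons with WT.

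The other 38 genes of cholesterol handling gave 0 calls in Irp1-/- against WT, 1 in Irp2-/- against WT and 1 between the knockouts. Of all genes tested, 1.02%, 1.21% and 4.69% were called in these comparisons (edgeR). A single call among 38 genes does not set this list apart from all genes. Lrp1, a large endocytic receptor that takes up apolipoprotein E remnants, was higher in Irp2-/- testes. Its values were 57.1, 57.3 and 54.2 CPM in Irp2-/- and 44.7, 42.6, 48.3 and 50.8 CPM in WT testes, with no overlap. Its log2 fold change was 0.27 (95% interval 0.15 to 0.40, adjusted p = 0.0184, edgeR), and the call was lost against WT replicates 3 and 4 alone, or without WT replicate 1 or 2 or Irp2-/- replicate 2. Lrp1 reached 49.3 CPM on average in Irp1-/- testes, and its difference between the knockouts had an adjusted p of 0.0542 (edgeR).

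Apoe, the lipoprotein ligand of those receptors, was 1.17 times as high in Irp1-/- as in Irp2-/- testes. It lay at 81.9, 70.5, 78.4 and 74.3 CPM in Irp1-/- and at 61.8, 62.9 and 70.9 CPM in Irp2-/- testes, where the highest Irp2-/- value just passed the lowest of Irp1-/-. Its log2 fold change was 0.23 (0.10 to 0.36, adjusted p = 0.0325, edgeR). The call was lost without Irp1-/- replicate 1 or 6 or Irp2-/- replicate 1 or 2. WT testes had 67.7 to 79.0 CPM.

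By list, the sterol arm, from squalene synthase to cholesterol, had 11 of 13 genes above 0 in Irp1-/- against WT testes, with a median log2 fold change of 0.17. Of these 13, 4 had an unadjusted p under 0.05 and none an adjusted one. Over all genes 49.7% were above 0 and 12.1% had an unadjusted p under 0.05. Sc5d, a late desaturase of the arm, had a log2 fold change of 0.25 (unadjusted p = 0.0105, adjusted p = 0.221, edgeR). In this arm Sc5d, Lss, Dhcr7, Tm7sf2, Msmo1, Nsdhl and Ebp each had WT replicates 1 and 2 as their 2 lowest samples of 11. The mevalonate arm, which supplies farnesyl diphosphate, had 6 of 9 genes above 0 and a median of 0.032. The SREBP control genes had 4 of 7 above 0 and a median of 0.028.

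Uptake and lysosomal release genes had 7 of 8 above 0 with a median of 0.092 in the same comparison. Among them Scarb1, the receptor for high-density lipoprotein cholesterol, had 0.17 (adjusted p = 0.233, edgeR) and Lipa, the lysosomal acid lipase, had 0.31 (adjusted p = 0.264, edgeR). Efflux and storage genes had 6 of 8 above 0, with a median of 0.073. Abca1, the cholesterol exporter, had 0.31 (-0.37 to 0.99, adjusted p = 0.742, edgeR).

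In Irp2-/- against WT testes the medians of the 5 lists were between 0.011 for SREBP control and 0.079 for the sterol arm. Between the knockouts they were between -0.013 for the mevalonate arm and 0.073 for uptake and lysosomal release.

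**Figure D4:**
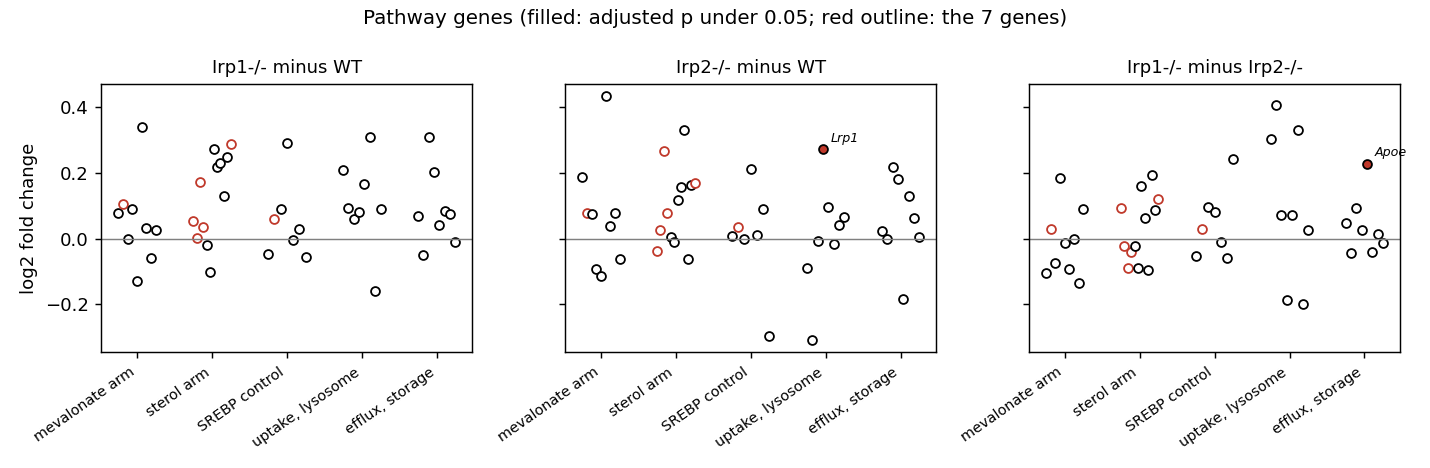
Log2 fold changes of most genes of 5 cholesterol lists in the 3 comparisons, 1 point per gene. Filled points passed an adjusted p of 0.05 in edgeR (Lrp1 and Apoe) and red outlines mark the 7 members, none of which is filled.

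The 2 WT testes with the lowest Dhcr7 were also the lowest in several Leydig cell genes. Cyp17a1, a key enzyme of androgen synthesis, was at 95.5 and 91.7 CPM in WT replicates 1 and 2 and at 176 to 300.4 CPM in the other 9 samples. Cyp11a1, which cleaves the cholesterol side chain to start steroid synthesis, was at 34.6 and 29.0 CPM in those 2 and at 69.5 to 113 CPM in the others. Insl3, a peptide hormone of Leydig cells, showed no such gap, with 489.9 and 483 CPM in WT replicates 1 and 2 and 519 and 496 CPM in WT replicates 3 and 4. Of the 8 Leydig markers, 4 had WT replicates 1 and 2 as their 2 lowest samples of 11.

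The same held for 2 of the 7 members (28.6%), Lss and Dhcr7, and for 12 of the other 38 cholesterol genes (31.6%), against 4.29% of 16406 genes. The 12 were Acat2, Mvd and Idi1 of the mevalonate arm, Tm7sf2, Msmo1, Nsdhl, Ebp and Sc5d of the sterol arm, and Insig1, Lrp1, Scarb1 and Soat1. This count was made after the values were seen. The pair was picked by its low Dhcr7, which is itself among the members counted, and genes of the same libraries are not independent of each other.

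Over the 11 samples Dhcr7 followed the mean z-score of the 8 Leydig markers with r = 0.884 (permutation p = 0.00026, adjusted p = 0.0146) and rho = 0.927 (permutation p = 0.00012, adjusted p = 0.00672). It was the 1 relation of 56 (7 members by 8 cell type lists) that passed the adjustment. These correlations were added after the values were seen, and the permutations moved samples freely across genotypes. Their p-values are therefore descriptive. In the 9 samples without WT replicates 1 and 2 the r of Dhcr7 was 0.693, and with genotype means removed it was 0.878. For Hmgcs1 r was 0.736 (permutation p = 0.0106, adjusted p = 0.296) and rho 0.809, and r was 0.630 in the 9 samples and 0.737 with genotype means removed. For Lss r was 0.701 (permutation p = 0.0166, adjusted p = 0.310) and rho 0.636, and r was 0.298 in the 9 samples and 0.852 with genotype means removed, so the relation depends in part on WT replicates 1 and 2. Srebf2 had r = 0.526, Cyp51 0.498, Sqle 0.166 and Fdft1 -0.080, none past the adjustment. With genotype means removed r was 0.451 for Srebf2, 0.607 for Cyp51, 0.273 for Sqle and -0.719 for Fdft1. For Fdft1 r was 0.351 in the 9 samples. The part of Leydig RNA in the fold changes of Dhcr7 and Lss was not tested.

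**Figure D5:**
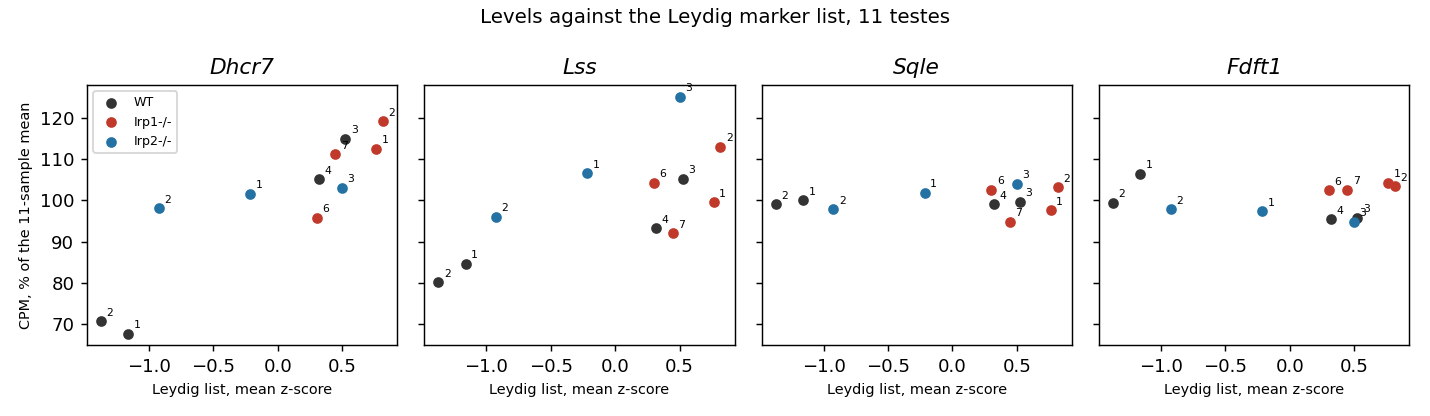
Level of 4 members, as a percentage of the 11-sample mean, against the mean z-score of 8 Leydig markers in each testis (points, with the replicate number). Dhcr7 rises along the axis with r = 0.884, Lss is lowest in WT replicates 1 and 2, and Sqle and Fdft1 stay near 100%.

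The summed Leydig markers lay at 751 to 1084 CPM in WT, 1014 to 1209 CPM in Irp1-/- and 780 to 1028 CPM in Irp2-/- testes. The median log2 fold change of that list was 0.39 in Irp1-/- against WT, with 1 of 8 genes called where 1.02% of all genes were, and 0.12 in Irp2-/- against WT with none called. Sertoli markers summed to 1033 to 1118 CPM in WT, 1150.5 to 1291 CPM in Irp1-/- and 1042 to 1186 CPM in Irp2-/- testes. Most of each sum was Clu, at 797 to 868 CPM in WT and 900 to 1013 CPM in Irp1-/- testes. In Irp1-/- against WT the median of the list was 0.12, with 1 of 9 called and 9 of 9 above 0. Spermatocyte markers had a median of -0.083 in Irp1-/- against WT, with none of 7 called or above 0 and with 3 of 7 whose groups did not overlap, against 6.63% of all genes. Round spermatid markers had a median of 0.014. Elongating spermatid markers had a median of -0.041 in Irp1-/- against WT, with 3 of 8 above 0. In Irp2-/- against WT their median was -0.088, with 0 of 8 above 0, and none was called in either comparison. Between the knockouts 2 of 8 Leydig and 3 of 9 Sertoli markers were called, all higher in Irp1-/- testes, against 4.69% of all genes.

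Across the 11 samples the members did not vary as 1 group. Hmgcs1 and Cyp51 were the closest pair (r = 0.763), followed by Hmgcs1 and Lss (r = 0.734). Fdft1 had a negative r with all other enzymes, from -0.20 with Sqle to -0.51 with Cyp51. Dhcr7 and Sqle shared almost none of their variation (r = 0.0036). Srebf2 had r between 0.13 and 0.44 with the enzymes. These r values describe the same 11 libraries and carry no test.

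Of 16399 genes, those most like the mean z-score of the 7 members included Vsig10l (r = 0.904), Kcnh1 (0.886), Impact (0.866) and Caap1 (0.859), over the 11 samples. Those most like Dhcr7 alone were Cyp17a1 (r = 0.974), Fads2 (0.965), Cyp11a1 (0.960), Acly (0.959) and Gm5424 (0.957).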

How the data were processed

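Testis polyA RNA of 11 mice (4 WT, 4 Irp1-/-, 3 Irp2-/-) was sequenced from stranded mRNA libraries. The authors deposited raw counts per gene, not normalized. The nf-core pipeline for RNA-seq was run at standard settings on mm10 from iGenomes, and the counting tool and its use of strand are not given in the sources used here. The submitters' notes name bcl2fastq 2.20.0.422 and DESeq2. Demultiplexing, trimming, alignment and counting were not repeated, so reads that overlapping genes share stay as the authors assigned them.

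edgeR 4.0.16 under R 4.3.3 was applied (filterByExpr, TMM scaling, robust quasi-likelihood test) to the counts of the samples of each comparison, with Benjamini-Hochberg adjustment over all genes tested and a threshold of 0.05. DESeq2 1.42.0, which the study used, was an alternative. Intervals at 95% were derived from the fold change, the F statistic and its degrees of freedom. CPM used TMM-scaled libraries. Levels per kb divided CPM by the union of exons of GENCODE M21 basic protein-coding transcripts. Total counts were 15902473 to 22451417 per sample, and the intervals also carry the spread between samples. Correlations were computed on log2 CPM (prior count 2) with 100000 permutations, and were added after seeing the data. The fits were tested on simulated data with planted fold changes larger than that of any member. That test therefore does not show whether shifts as small as those of the members would be called.

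The 7 members and all lists were chosen with earlier results of these data known. Pathway genes were named if they passed the adjusted p in any comparison, plus the 5 with the smallest unadjusted p. The targeted genes, all members, up to 5 genes most alike in pattern and up to 3 markers of a list given beside a result were also named. Some genes that this rule covers are not reported here. Same-numbered samples shared little of their deviation from genotype means (r from -0.0099 to 0.078), and the fits carried no block. These r values were not compared with those of differently numbered samples, so they cannot exclude pairing. As alternatives, DESeq2, RLE size factors, 2 other count filters, 1 fit of all samples, a replicate block, leaving out each replicate and, added after seeing the data, only WT replicates 3 and 4 were tried.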

Additional observations from a re-analysis of the deposited data

Results flagged for a closer look

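Dixon's 95% limit was applied to the 4 WT and the 4 Irp1-/- samples. It singled out a sample in 2 of the 52 groups examined, where chance gives 2.6. Lrp1 was at 52.8 CPM in Irp1-/- replicate 2, with 47.6 to 48.4 CPM in the other Irp1-/- samples. The summed Sertoli markers reached 1291 CPM in Irp1-/- replicate 1, against a median of 1165 CPM in that genotype. Clu alone was at 1013 CPM in that sample and at 900 to 911 CPM in the other Irp1-/- samples. The causes were not tested.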

How the results depend on the processing

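No member was called in any comparison under RLE normalization, the other count filters, DESeq2, the fit of all 11 samples, only WT replicates 3 and 4, or any fit without 1 replicate. The exception was the replicate block in Irp1-/- against WT, which by construction held only replicates 1 and 2 of each genotype. It called 3 members, Dhcr7 (log2 fold change 0.745, adjusted p = 3.9e-08, edgeR), Hmgcs1 (0.261, adjusted p = 0.000657, edgeR) and Lss (0.369, adjusted p = 0.0282, edgeR), 7 other cholesterol genes and 432 genes in all. The WT samples in it were the 2 with the lowest Cyp17a1, and the labels do not say whether the numbers pair samples across genotypes. With the replicate block, 130 genes were called in Irp2-/- against WT, 5 other cholesterol genes were called between the knockouts, and the fold changes of Sqle (0.018), Lss (0.079) and Cyp51 (0.029) turned positive there.

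Against WT replicates 3 and 4 only, chosen after seeing the data, Irp2-/- gave 88 genes and 0 other cholesterol genes, with Hmgcs1 at -0.011, Dhcr7 at -0.12 and Fdft1 at 0.019, and Irp1-/- gave Cyp51 at -0.0067 and Dhcr7 at -0.0011. Other cholesterol genes called between the knockouts were 2 with no count filter, with at least 10 counts in every sample, with DESeq2 and with 1 fit of all samples. Leaving out 1 replicate, the genes called ranged from 55 (without Irp1-/- replicate 1) to 216 in Irp1-/- against WT (84 without WT replicate 2, 102 and 106 without Irp1-/- replicate 6 or WT replicate 4). They ranged from 118 (without Irp2-/- replicate 2) to 223 in Irp2-/- against WT, and from 414 (without Irp2-/- replicate 2) to 763 between the knockouts (471 without Irp1-/- replicate 1). Other cholesterol genes ranged from 0 to 1, 0 to 2 and 0 to 2. The Lrp1 call was lost without WT replicate 1 or 2 or Irp2-/- replicate 2.

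Fold changes of small size turned sign when a replicate was left out. Sqle ranged from -0.015 to 0.028 in Irp1-/- against WT and from -0.049 to 0.0051 between the knockouts. Hmgcs1 and Srebf2 ranged from -0.029 to 0.14 and from -0.043 to 0.076 in Irp2-/- against WT, and from -0.041 to 0.14 and -0.012 to 0.11 between the knockouts, where Lss ranged from -0.17 to 0.025 and the median of the members from -0.038 to 0.088. The cause was not tested.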

Other observations

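The genes whose pattern over the 11 samples was most like that of the other members differed from member to member. They were Msh4 for Hmgcs1 (r = 0.895), Rasef for Sqle (0.906), Prrt2 for Lss (0.901), Tmem185b for Cyp51 (0.962), Ncbp1 for Fdft1 (0.936) and Sco1 for Srebf2 (0.866). Ftl1, the ferritin light chain, was the second most like Lss (r = 0.896). With 11 samples and 16399 genes ranked, these values describe the samples and carry no test.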
